A study of Homo sapiens with 8 samples.

Results

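The comparison described here sets U87MG cells treated with enzalutamide for 48 h against untreated U87MG cells, across all genes with enough counts. U87MG is an established human glioblastoma line, and enzalutamide is an antiandrogen drug used against prostate cancer. The series holds 8 RNA-seq libraries, 2 each of untreated control cells and of cells after 4 h, 24 h and 48 h with enzalutamide. The 48 h comparison rests on 4 of the 8. All groups were the same unmodified line in DMEM with serum, and the labels give neither a dose, nor a vehicle, nor a time at which the controls were taken. Nothing in the labels tells if the 2 libraries of each group were grown apart, so p-values measure only the spread between them, which may be technical. Of 23368 genes in the count tables, 14448 had enough counts to be tested. The members are therefore these 14448 genes, described by groups of known function that were chosen with earlier results of these data in view.

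The endoplasmic reticulum (ER) folds membrane and secreted proteins. When unfolded proteins build up there, the sensors IRE1 (gene ERN1), PERK (EIF2AK3) and ATF6 start the unfolded protein response. IRE1 splices the XBP1 mRNA, ATF6 is cut by proteases into a transcription factor, and PERK phosphorylates the initiation factor eIF2. Phosphorylated eIF2 lowers general translation and favours that of ATF4. With DDIT3 (also called CHOP) and ATF3, ATF4 turns on the integrated stress response, a program shared with amino acid shortage and other stresses. Glioblastoma cells of the mesenchymal kind make much matrix and many cytokines, whose proteins pass through this compartment.

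At 48 h, 4814 genes were higher (33.3% of those tested) and 4847 lower (33.5%) than in control at an adjusted p below 0.05, by edgeR's quasi-likelihood test with Benjamini-Hochberg adjustment over all 14448 genes. Together these were 66.9%. The shares of 33.3% and 33.5% are the reference for each list count at 48 h against control below. Large changes were mostly falls: 766 genes were higher by at least 2-fold (5.30%) and 2290 lower by at least 2-fold (15.8%). Both 48 h libraries lay above both controls in 5814 genes (40.2%) and below both in 6040 genes (41.8%). The counts of rises and falls depend on the scaling. With library totals in place of TMM factors, the median log2 change of all genes moved from -0.02 to -0.30, a shift of -0.28, and 2742 genes were higher and 6729 lower. Levels below are CPM, counts brought to a common library size with TMM factors. TMM factors were 1.07 and 1.08 for the controls and 0.870 and 0.899 at 48 h, so each log2 change below is relative to the typical gene. Library totals were 33025426 and 32298781 counts in the controls and 33793387 and 32348619 at 48 h. In bulk RNA, fewer cells making a transcript and less of it per cell cannot be told apart. Of the markers of the line, VIM was abundant, at 7917 and 8066 CPM in the controls and 13638 and 12517 at 48 h. CDKN2A, CDKN2B and MTAP, which are deleted in U87MG, were at 0 or 1 count. Lists of 4 epithelial and 4 red cell markers had no member with enough counts to be tested: EPCAM had at most 7 counts in a library and HBB 0. Of 6 immune cell markers PTPRC had at most 6 counts, and CD68, a lysosomal protein of macrophages that other cells also make, was the tested member, at 712 and 657 CPM in the controls and 1049 and 930.0 at 48 h (log2 change 0.53 ± 0.07). Of 4 endothelial markers 3 were tested and KDR was lower; their summed share was 0.0019% of counts in control and 0.00041% at 48 h. Of 4 neuron markers 3 were tested and RBFOX3 and SNAP25 were lower, with a summed share of 0.0040% in control and 0.0019% at 48 h. The part of other cells in the results was not tested.

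**Figure D1:**
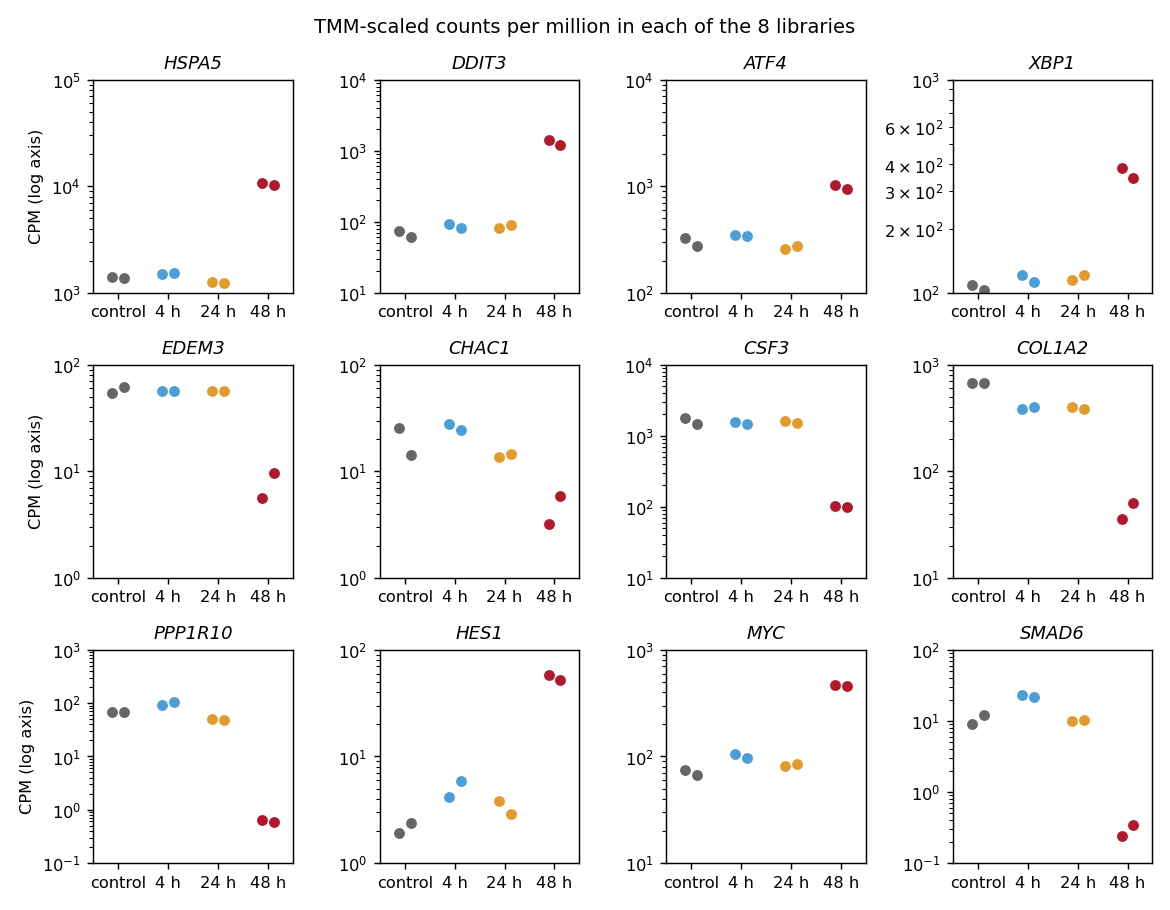
TMM-scaled CPM (log axis) of 12 genes in each of the 8 libraries, 2 points per group. The 48 h points stand apart from the other groups in HSPA5, DDIT3, ATF4, XBP1, HES1 and MYC on the high side and in EDEM3, CHAC1, CSF3, COL1A2, PPP1R10 and SMAD6 on the low side.

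Among the 12 sensors and transcription factors of the unfolded protein response, 6 were higher at 48 h and 3 lower, with a median log2 change of 0.19 beside -0.02 for all genes. With library totals it was -0.09, with 5 higher and 5 lower, and over the members with at least 5 CPM in 2 libraries 0.11. DDIT3, a transcription factor that favours cell death in prolonged stress, stood at 72.8 and 59.9 CPM without drug, 91.3 and 80.3 (4 h), 82.2 and 88.7 (24 h) and 1418 and 1223 (48 h). The 48 h libraries lay far above all 6 others, and the log2 change against control was 4.31 ± 0.12 (adjusted p = 4.55e-10). XBP1, whose product raises the folding and export capacity of the ER, stood at 108 and 103 CPM in the controls and 385 and 347 at 48 h. The XBP1 log2 change was 1.79 ± 0.07 (adjusted p = 7.41e-09); gene counts do not show how much of it was spliced. ATF4 stood at 326 and 277 CPM in the controls and 1023 and 931 at 48 h. ATF4 changed by 1.70 ± 0.08 on the log2 scale (adjusted p = 2.13e-08). Of the 3 sensors, ERN1 was called higher, with 16.4 and 16.3 CPM in the controls and 33.1 and 36.8 at 48 h and a log2 change of 1.09 ± 0.09 (adjusted p = 1.30e-06). EIF2AK3 stood at 28.7 and 26.9 CPM in the controls and 27.7 and 31.9 at 48 h with a log2 change of 0.10 ± 0.09 (adjusted p = 0.37), and its groups overlapped. ATF6 stood at 101 and 107 CPM in the controls and 110.0 and 111 at 48 h with a log2 change of 0.09 ± 0.06 (adjusted p = 0.21), which was -0.19 with library totals. MBTPS1, the site-1 protease that cuts ATF6, was slightly lower, with a log2 change of -0.31 ± 0.06 (adjusted p = 0.001). In this list DDIT3, XBP1 and ATF4 had larger changes than any of the 3 sensors.

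Of 37 ER chaperones and folding enzymes, 23 were higher, 6 lower and 8 not called, with a median log2 change of 0.33. With library totals, 11 were higher and 11 lower, and the median was 0.05. HSPA5, the chaperone BiP that binds unfolded chains and holds the sensors inactive, stood at 1408 and 1364 CPM without drug, 1497 and 1538 (4 h), 1254 and 1237 (24 h) and 10789 and 10196 (48 h). Its 4 h and 24 h values stayed near the controls and the 48 h values were 7.57-fold higher, a log2 change of 2.92 ± 0.06 (adjusted p = 6.95e-11). HSPA5 alone held 0.149% of all counts in control and 0.928% at 48 h, the largest gain in share of any gene. The next largest rise in the list was that of DNAJB9, a cochaperone of BiP, at 25.1 and 23.99 CPM in the controls and 69.5 and 69.2 at 48 h. DNAJB9 was 2.83-fold higher (adjusted p = 2.15e-08). The other major chaperones moved far less. The log2 change was 0.80 ± 0.05 for CANX and 0.45 ± 0.07 for CALR, the lectin chaperones calnexin and calreticulin. It was 0.71 ± 0.05 for HSP90B1, the ER form of HSP90, 0.53 ± 0.06 for HYOU1, which recharges BiP with ATP, and 0.30 ± 0.06 and 0.39 ± 0.06 for the disulfide isomerases PDIA4 and PDIA6. CRELD2 and SDF2L1, which often rise with BiP, changed little beside it. CRELD2 stood at 48.9 and 48.1 CPM in the controls and 53.5 and 46.5 at 48 h, with a log2 change of 0.04 ± 0.10 (adjusted p = 0.71) that was -0.24 with library totals. SDF2L1, a partner of the BiP cycle, stood at 17.03 and 17.7 CPM in the controls and 28.7 and 22.3 at 48 h, with a log2 change of 0.56 ± 0.13 (0.37 without 48 h replicate 1). Lower members were CDNF (-1.79 ± 0.47), ERO1LB (-1.05 ± 0.14), an oxidase that recharges disulfide isomerases, SDF2 (-0.99 ± 0.10) and FKBP14 (-0.78 ± 0.11), a proline isomerase that acts on collagen, each value a log2 change.

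The promoters of these genes are shown because 3 short DNA elements are known for this response. A list of its genes may therefore hold them more often than all genes do, whatever happened at 48 h. The shares of genes holding an element do not use the 48 h values. The sequences come from RefSeq (GRCh38.p14) and hold 250 bases before to 50 bases after each start, searched on both strands. There were promoters for 11053 of the 14448 tested genes (76.5%). As that is under 80%, no share of tested genes holding an element is given, and the 27305 genes of the table serve as the reference. The ER stress element was searched as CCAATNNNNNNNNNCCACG, to which ATF6 binds together with NF-Y. It occurred in 25 of the 27305 genes (0.0916%), and in 8 of the 34 chaperone and folding genes with a promoter (23.5%). Of these 8, HSPA5, HSP90B1, CANX, CALR, SERP1 and PDIA6 were higher, CRELD2 was not called and ERO1LB was lower. In the whole list 23 of 37 were higher and 6 lower. Outside the list the element occurred in 8 tested genes: XBP1, EIF2A and TMEM120A were higher, FICD, SYNPO and ZNF17 lower, and ALG12 and TRIM5 not called. FICD, which modifies BiP, had a log2 change of -1.39 ± 0.18. The match is a description of letters in a window, not a sign of binding. The 250 bases before the HSPA5 start (chr9:125241344-125241593, minus strand) and shorter stretches around the element follow, 5′ to 3′ on the gene's strand, with the element in capitals. CGTGG at its left end shows that it lies on the opposite strand.
HSPA5: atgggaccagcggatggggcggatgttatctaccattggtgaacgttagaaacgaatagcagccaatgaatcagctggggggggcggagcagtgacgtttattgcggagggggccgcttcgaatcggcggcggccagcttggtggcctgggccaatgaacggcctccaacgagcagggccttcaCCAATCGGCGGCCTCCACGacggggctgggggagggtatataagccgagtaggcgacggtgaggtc
XBP1 (chr22:28800589-28800635, minus strand): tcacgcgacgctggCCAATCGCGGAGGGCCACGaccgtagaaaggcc
HSP90B1 (chr12:103930202-103930248, plus strand): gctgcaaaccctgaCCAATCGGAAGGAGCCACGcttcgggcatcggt
SERP1 (chr3:150546696-150546742, minus strand): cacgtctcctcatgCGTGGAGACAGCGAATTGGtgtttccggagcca
CALR (chr19:12938370-12938416, plus strand): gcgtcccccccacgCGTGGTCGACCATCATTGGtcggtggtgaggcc
The element began 66 bases before the start in HSPA5 and 52 in XBP1. These 5 were picked among the higher genes, with log2 changes from 0.45 to 2.92. Over all 16 tested genes with the element the log2 change ran from -1.86 in ZNF17 to 2.92 in HSPA5.

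Genes that take proteins into and out of the ER were mostly higher. Of 24 genes of the translocon and signal recognition, 18 were higher and 1 lower, with a median log2 change of 0.46 (12 higher and 6 lower with library totals). SEC61A1, the channel itself, stood at 648 and 636 CPM in the controls and 1055 and 965 at 48 h. The SEC61A1 log2 change was 0.65 ± 0.06 (adjusted p = 2.47e-06). SRP72, a part of the signal recognition particle, stood at 214 and 213 CPM in the controls and 349 and 339 at 48 h. SRP72 changed by 0.69 ± 0.06 on the log2 scale. The exception was SPCS3, a subunit of the signal peptidase that cuts off the targeting signal, at 195 and 195 CPM without drug, 194 and 191 (4 h), 207 and 201 (24 h) and 33.99 and 37.1 (48 h). Its 48 h libraries were 5.48-fold lower than control, a log2 change of -2.46 ± 0.07 (adjusted p = 4.55e-10). Of 33 genes of the COPII and COPI coats, which carry vesicles from the ER and back to it, 26 were higher and 3 lower, with a median of 0.45 (19 higher and 4 lower with library totals). COPB1, a COPI subunit, stood at 248 and 254 CPM in the controls and 587 and 613 at 48 h (log2 change 1.26 ± 0.06, adjusted p = 1.61e-08). SEC24D, which selects cargo for COPII, stood at 143 and 156 CPM in the controls and 320.2 and 345 at 48 h (log2 change 1.15 ± 0.07, adjusted p = 8.79e-08). The 3 lower genes were the COPII GTPases SAR1A and SAR1B and the cargo receptor part MCFD2, with log2 changes from -0.33 to -0.17; SAR1A was not called without 48 h replicate 2 (-0.09) nor without either control.

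The element TGACGTGG, a core of the sites bound by XBP1 and ATF6, occurred in 9 of the 30 coat genes with a promoter, in 4 of 21 translocon genes (19.0%) and in 253 of all 27305 genes (0.927%). Of the 9 coat genes, ARF1, COPA, COPB1, COPB2, KDELR3, SEC23A and SEC24A were higher, and SEC16A and SEC16B were not called. Thus 77.8% of the coat genes with the element were higher, beside 78.8% of all 33 coat genes. With library totals COPB2 had a log2 change of -0.09 in place of 0.19. Of the 4 translocon genes, SEC62, SRP19, SSR3 and SSR4, all were higher, as were 18 of all 24 in that list. Of 4 chaperone genes with the element, among 34, HYOU1 was higher and 3 were not called, and of 2 degradation genes, among 20, 1 was higher and 1 lower. Of the 135 tested genes holding it, 59 were higher (43.7%) and 36 lower (26.67%), beside 33.3% and 33.5% of all genes tested. The stretches around the element are shown for the 5 higher coat genes in which the whole element lies before the outermost start, in capitals, with CCACGTCA where it is on the opposite strand.
COPB1 (chr11:14499838-14499873, minus strand): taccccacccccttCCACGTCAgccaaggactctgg
ARF1 (chr1:228082678-228082707, plus strand): gcgcccggaggcgcTGACGTGGccgccgtc
SEC24A (chr5:134648592-134648627, plus strand): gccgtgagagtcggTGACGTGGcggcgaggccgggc
KDELR3 (chr22:38468036-38468071, plus strand): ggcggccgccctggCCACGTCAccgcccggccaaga
COPB2 (chr3:139389822-139389857, minus strand): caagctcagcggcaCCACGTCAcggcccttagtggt

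ER-associated degradation, which pulls misfolded proteins back to the cytosol for the proteasome, changed in both directions. Of 25 genes, 16 were higher and 7 lower, with a median of 0.42 (10 higher and 9 lower with library totals). HERPUD1, an ER membrane protein of the ubiquitin ligase complex, stood at 79.2 and 69.8 CPM in the controls and 408 and 391 at 48 h. For HERPUD1 the log2 change was 2.42 ± 0.08 (adjusted p = 1.17e-09). The ligase RNF139 stood at 28.8 and 29.5 CPM in the controls and 69.8 and 66.4 at 48 h (log2 change 1.22 ± 0.08), and the core ligase pair SEL1L and SYVN1 had smaller log2 changes of 0.42 ± 0.09 and 0.39 ± 0.07 (0.28 for SEL1L without 48 h replicate 2). Of the mannose-trimming genes, EDEM3 stood at 54.8 and 62.1 CPM in the controls and 5.65 and 9.62 at 48 h. The EDEM3 log2 change was -2.94 ± 0.17 (adjusted p = 7.47e-08). EDEM1, which is usually raised by XBP1, stood at 189 and 194 CPM in the controls and 87.4 and 129 at 48 h. EDEM1 changed by -0.82 ± 0.13 on the log2 scale (adjusted p = 1.97e-04). The ubiquitin-conjugating enzyme UBE2G2 stood at 69.1 and 62.8 CPM in the controls and 19.1 and 23.99 at 48 h. For UBE2G2 the log2 change was -1.61 ± 0.10 (adjusted p = 1.78e-07). EDEM2 was higher, so the 3 EDEM genes did not move together.

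**Figure D2:**
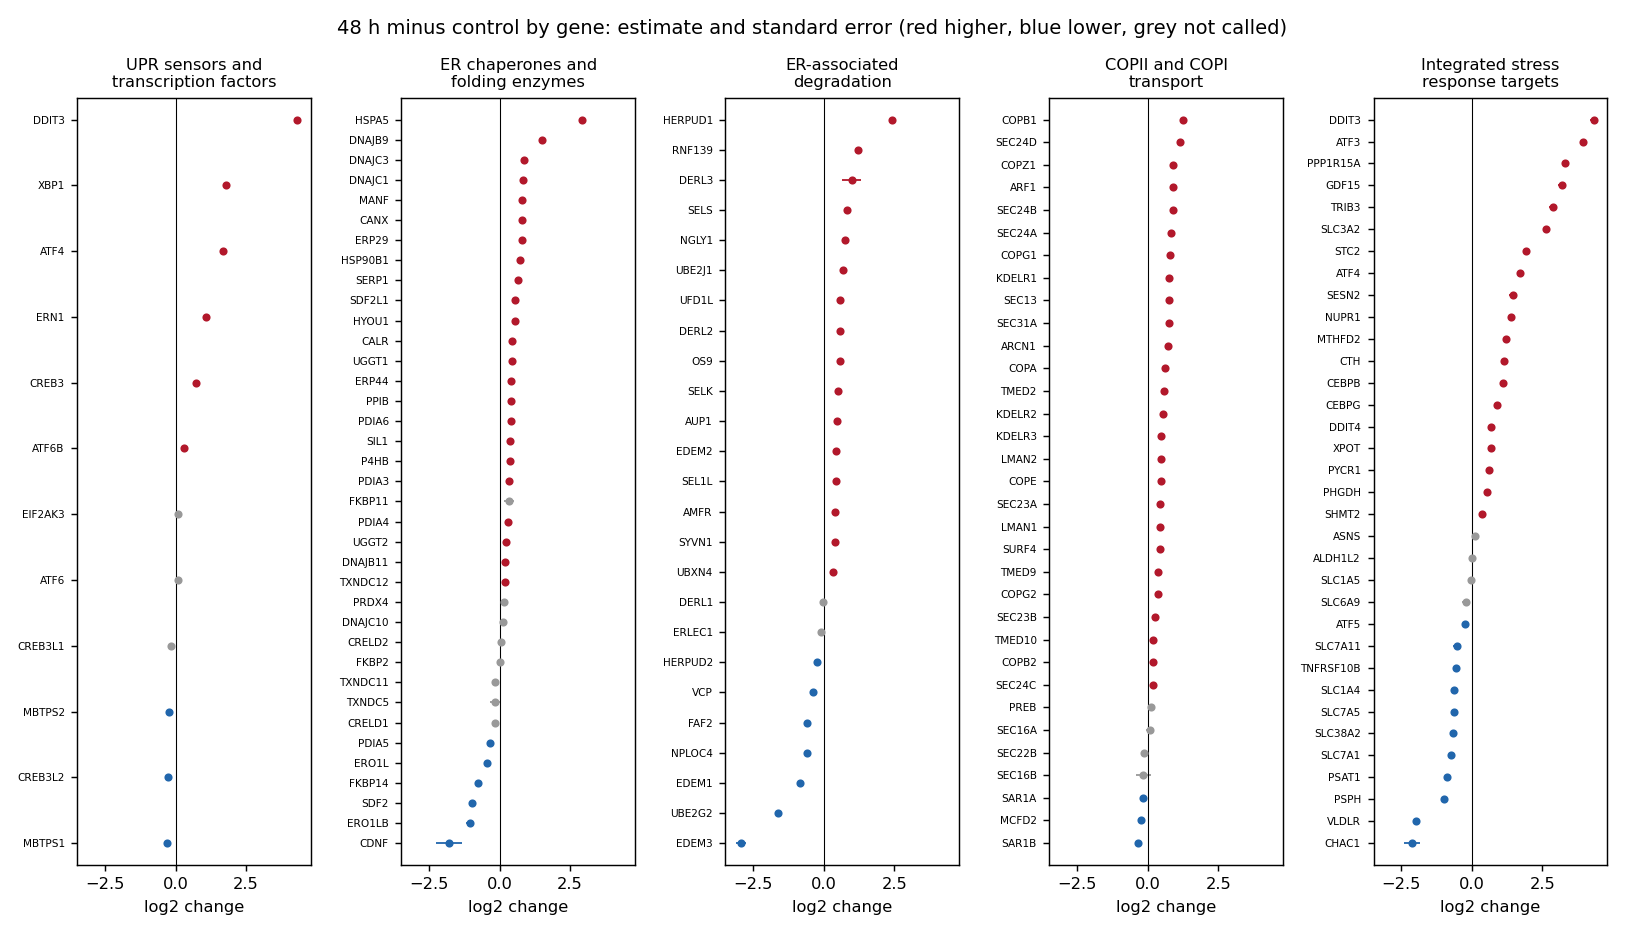
Log2 change, 48 h minus control, with its approximate standard error, of every tested gene in 5 lists of the ER and the integrated stress response, sorted within each list. DDIT3, HSPA5, HERPUD1 and COPB1 head their lists, while EDEM3, CDNF and CHAC1 lie at the bottom of theirs; with library totals every point would shift by about -0.28.

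The integrated stress response targets changed in both directions, with more large rises than large falls. Of 34, 19 were higher and 11 lower, with a median of 0.57 (18 higher and 14 lower with library totals). Of these, 13 rose and 2 fell by at least 2-fold. ATF3 stood at 26.6 and 27.6 CPM without drug, 47.03 and 45.5 (4 h), 29.5 and 32.7 (24 h) and 424 and 403 (48 h). The ATF3 log2 change was 3.93 ± 0.08 (adjusted p = 6.95e-11). PPP1R15A (GADD34), which brings the phosphatase that reverses eIF2 phosphorylation, stood at 90.9 and 88.7 CPM in the controls and 979 and 813 at 48 h. PPP1R15A changed by 3.32 ± 0.09 on the log2 scale (adjusted p = 4.55e-10). The kinase-like regulator TRIB3 stood at 51.1 and 36.1 CPM in the controls and 326 and 313 at 48 h (log2 change 2.87 ± 0.14). The secreted stress hormone GDF15 stood at 113 and 104 CPM in the controls and 1076 and 895 at 48 h (log2 change 3.18 ± 0.11). SLC3A2, the heavy chain shared by several amino acid transporters, stood at 280.0 and 243 CPM in the controls and 1727 and 1505 at 48 h (log2 change 2.63 ± 0.09). GDF15 was already higher at 24 h, with a log2 change of 1.00. Other known ATF4 targets were lower. CHAC1, which degrades glutathione, stood at 25.4 and 14.3 CPM in the controls and 3.198 and 5.84 at 48 h. For CHAC1 the log2 change was -2.13 ± 0.28 (adjusted p = 4.65e-05). SLC7A5 and SLC7A11, the light chains that pair with SLC3A2, had log2 changes of -0.64 ± 0.10 and -0.53 ± 0.15. For SLC7A11 it was -0.34 without 48 h replicate 1, and without control replicate 1 the gene was not called. The serine synthesis genes PSAT1 and PSPH had log2 changes of -0.87 ± 0.10 and -0.99 ± 0.10. ASNS, asparagine synthetase, stood at 229 and 195 CPM in the controls and 248 and 211 at 48 h, its groups overlapped, and its log2 change was 0.12 ± 0.09 (adjusted p = 0.29). SLC3A2 and its partners SLC7A5 and SLC7A11 changed in opposite directions.

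Of 17 genes of eIF2, its kinases and phosphatases, 11 were higher and 3 lower, with a median of 0.24 that was -0.04 with library totals (7 higher and 5 lower) and 0.16 over the members with at least 5 CPM in 2 libraries. PPP1R15B, the constitutive partner of PPP1R15A, stood at 53.8 and 56.3 CPM in the controls and 104 and 121 at 48 h (log2 change 1.04 ± 0.08). Of 20 cytosolic aminoacyl-tRNA synthetases, which charge tRNAs with amino acids, 13 were higher and 1 lower, with a median of 0.32 (8 higher and 7 lower with library totals, median 0.04). GARS stood at 353 and 318 CPM without drug, 329 and 313 (4 h), 299.6 and 319 (24 h) and 801 and 784 (48 h). The GARS log2 change was 1.24 ± 0.07 (adjusted p = 5.03e-08). MARS stood at 276 and 247 CPM in the controls and 179 and 174 at 48 h. MARS changed by -0.57 ± 0.07 on the log2 scale (adjusted p = 1.51e-05). AARS and YARS were below control at 24 h, with log2 changes of -0.45 and -0.39, and above it at 48 h, with 0.76 ± 0.06 and 0.87 ± 0.06. The C/EBP-ATF element TGATGNAA, to which ATF4 and C/EBP factors bind, occurred in 7 of the 16 synthetase genes with a promoter (43.8%) and in 1217 of all 27305 genes (4.46%). Of these 7, 5 were higher, 1 lower (MARS) and 1 not called (IARS), beside 13 higher and 1 lower of all 20 synthetases. As with the ER stress element, the shares of genes holding it do not use the 48 h values. Only 27 of 34 stress response targets had a promoter (79.4%), too few for a share to be given. Of the 8 that held the element, ATF3, CEBPG and SLC3A2 were higher, CHAC1, SLC7A1 and SLC1A4 lower, and ASNS and SLC1A5 not called. Of the 343 tested genes holding it, 109 were higher (31.78%) and 124 lower (36.15%), beside 33.3% and 33.5% of all genes tested. Shown are 3 higher genes of different lists, picked after their values were seen, in which it lies before the outermost start, as it also does in CHAC1 and ASNS. The element is in capitals; it is reverse-complemented where it starts with TT.
ATF3 (chr1:212565202-212565237, plus strand): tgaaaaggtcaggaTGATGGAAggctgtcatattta
HERPUD1 (chr16:56931952-56931987, plus strand): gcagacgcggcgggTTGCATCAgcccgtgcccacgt
AARS (chr16:70289672-70289707, minus strand): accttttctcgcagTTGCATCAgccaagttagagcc

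Cell death genes changed without a common direction. Of 11 BH3-only and death receptor genes, 3 were higher and 4 lower (2 and 7 with library totals). That is 27.3% and 36.4%, beside 33.3% and 33.5% of all genes tested. BBC3 (PUMA) stood at 2.52 and 2.301 CPM in the controls and 10.4 and 8.15 at 48 h. For BBC3 the log2 change was 1.94 ± 0.24 (adjusted p = 2.41e-05). HRK stood at 0.0850 and 0.0575 CPM in the controls and 0.987 and 1.34 at 48 h, and was called higher; its control libraries held 3 counts or fewer, so no fold is given. TNFRSF10B (DR5), a death receptor that DDIT3 is known to induce, stood at 236 and 235 CPM in the controls and 145 and 175 at 48 h. The TNFRSF10B log2 change was -0.56 ± 0.08 (adjusted p = 8.65e-05). The decoy receptor TNFRSF10D stood at 111 and 104 CPM in the controls and 22.3 and 23.7 at 48 h. TNFRSF10D changed by -2.23 ± 0.07 on the log2 scale. Both 48 h libraries lay below both controls for these receptors. Of 17 caspases and their regulators, 11 were lower and 2 higher, with a median of -0.79 (-0.50 without 48 h replicate 1). CASP8, the initiator caspase of death receptors, stood at 29.6 and 30.3 CPM in the controls and 5.002 and 5.67 at 48 h (log2 change -2.49 ± 0.12). Its relative CASP10 stood at 6.49 and 8.23 CPM in the controls and 1.16 and 0.962 at 48 h (log2 change -2.79 ± 0.25). The higher members were BIRC5 (survivin) and DIABLO, with log2 changes of 0.76 ± 0.08 and 0.47 ± 0.07. Of 7 BCL2-type survival and pore genes, 5 were higher and 0 lower, with a median of 0.38. They include the pore genes BAX and BAK1, so neither count nor median is that of survival genes alone. With library totals 2 were higher and 2 lower, and the median was 0.10; it was 0.23 without 48 h replicate 1 and 0.24 without control replicate 2. BCL2L1 (BCL-XL) had a log2 change of 0.19 ± 0.06, which was -0.09 with library totals, and MCL1 one of -0.09 ± 0.09 (adjusted p = 0.37). CDKN1A (p21), an inhibitor of cyclin-dependent kinases, stood at 226 and 219.9 CPM without drug, 239 and 253 (4 h), 342 and 348 (24 h) and 635 and 575 (48 h). For CDKN1A the log2 change was 1.44 ± 0.07 at 48 h and 0.63 at 24 h. GADD45A stood at 48.4 and 48.7 CPM in the controls and 266 and 246 at 48 h (log2 change 2.40 ± 0.09). CDKN1A and GADD45A belong to a list of 24 p53 targets, of which 12 were higher and 6 lower. Its median was 0.38, and 0.12 to 0.63 between single 48 h and control libraries. The lowest member was FAM212B, with a log2 change of -5.02.

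Genes of ribosomes, translation and respiration were mostly higher. Of 79 tested cytosolic ribosomal protein genes, 76 were higher and 0 lower, with a median log2 change of 0.61; with library totals 67 were higher and 0 lower, with a median of 0.33. Their share of all counts was 2.57% in control and 3.23% at 48 h. RPL12 stood at 95.1 and 87.3 CPM in the controls and 176 and 157 at 48 h (log2 change 0.87 ± 0.07). RPSA stood at 402 and 378 CPM in the controls and 712 and 618 at 48 h (log2 change 0.77 ± 0.07). The median was 0.47 to 0.74 when 1 library was left out, and these genes have many near-identical copies whose reads may be lost or shared. Of 39 translation factors, 32 were higher and 2 lower, with a median of 0.58 (27 and 6 with library totals). EIF1, which guides start codon choice, stood at 473 and 451 CPM in the controls and 1467 and 1392 at 48 h (log2 change 1.63 ± 0.06, adjusted p = 2.86e-09). EIF1AX, which acts in the same step, was lower, at 60.4 and 59.7 CPM in the controls and 37.2 and 45.3 at 48 h (log2 change -0.54 ± 0.09). Of 76 nuclear genes of oxidative phosphorylation, 59 were higher and 2 lower, with a median of 0.38; with library totals 20 were higher and 6 lower. Their share of counts was 0.902% and 0.847% in the controls and 0.997% and 0.886% at 48 h, so the groups overlapped. Of 76 mitochondrial ribosomal protein genes, 43 were higher and 6 lower, and 22 and 20 with library totals; the median of 0.31 was 0.19 without 48 h replicate 1 and 0.03 with library totals. Proteasome subunits gave 27 higher and 4 lower of 38 and a median of 0.28, which was -0.00 with library totals (10 higher and 8 lower). The proteasome share was 0.665% and 0.645% in the controls and 0.694% and 0.643% at 48 h, which overlap. Among 21 genes commonly used as references, 18 were higher and 1 lower, with a median of 0.51 (14 and 1 with library totals), and their share of counts was 3.62% in control and 4.96% at 48 h. FTH1 and FTL, the ferritin chains that store iron, had log2 changes of 1.08 ± 0.07 and 1.12 ± 0.08; these genes too have near-identical copies. PGK1, of glycolysis, was the lower reference gene, at 798 and 789 CPM in the controls and 716 and 642 at 48 h (log2 change -0.23 ± 0.06, and -0.14 without 48 h replicate 2).

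Of 36 autophagy genes, 22 were higher and 8 lower, with a median of 0.37 (14 and 11 with library totals). SQSTM1 (p62), the receptor that carries ubiquitinated cargo, stood at 1476 and 1446 CPM without drug, 1989 and 2066 (4 h), 1487 and 1531 (24 h) and 4329 and 4256 (48 h). The SQSTM1 log2 change was 1.55 ± 0.05 (adjusted p = 2.07e-09). The phagophore protein gene GABARAPL1 stood at 49.8 and 49.6 CPM in the controls and 150.4 and 144 at 48 h (log2 change 1.57 ± 0.07). ATG2A, a lipid transfer protein of the same membranes, was lower, at 47.8 and 47.9 CPM in the controls and 25.04 and 31.5 at 48 h (log2 change -0.76 ± 0.10). Of 30 lysosome genes, 22 were higher and 3 lower, with a median of 0.36 (11 and 7 with library totals); the protease gene CTSD stood at 773 and 689 CPM in the controls and 1663 and 1464 at 48 h (log2 change 1.10 ± 0.08).

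The change at 48 h followed the level of a gene. In 10 equal groups by mean log2 CPM over all 8 libraries, the median log2 change ran from -0.68 in the lowest to 0.35 in the highest. In the lowest group 79 of 1445 genes were higher and 405 lower; in the highest 919 were higher and 249 lower. That mean includes the 48 h libraries. In 10 groups by the level in control alone, the median was -0.45 in the lowest, with 117 higher and 296 lower, -0.51 in the next and 0.28 in the highest, with 839 higher and 323 lower. By at least 2-fold, 110 genes of the lowest of these groups were higher and 296 lower. In the highest, 52 were higher and 79 lower by that much. The groups by mean level had medians between -0.08 and 0.05 at 24 h. Transcript length went with the change as well, over the 13791 genes matched to a GENCODE transcript: the median was 0.24 in the shortest of 5 equal groups and -0.23 in the longest. Among the 478 short genes of the highest level group of 5, 394 were higher and 24 lower. Among its 657 long genes 255 were higher and 212 lower. When length and GC content were corrected for, a step chosen after seeing the data, the median of cytosolic ribosomal protein genes was 0.51 in place of 0.61. That of oxidative phosphorylation was 0.26 in place of 0.38 and that of mitochondrial ribosomal protein genes 0.14 in place of 0.31. The BCL2-type median was 0.16 in place of 0.38. Medians of the UPR sensors and eIF2 genes were larger, at 0.31 and 0.43 in place of 0.19 and 0.24. Of lists described further on, the median was -0.21 in place of -0.36 for ZNF genes, -0.08 in place of -0.26 for chromatin remodellers and readers, 0.10 in place of -0.13 for histone methyltransferases and demethylases, -0.27 in place of -0.45 for the Notch pathway and 0.51 in place of 0.33 for the circadian clock. The part of the level of a gene in the list values was not tested.

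**Figure D3:**
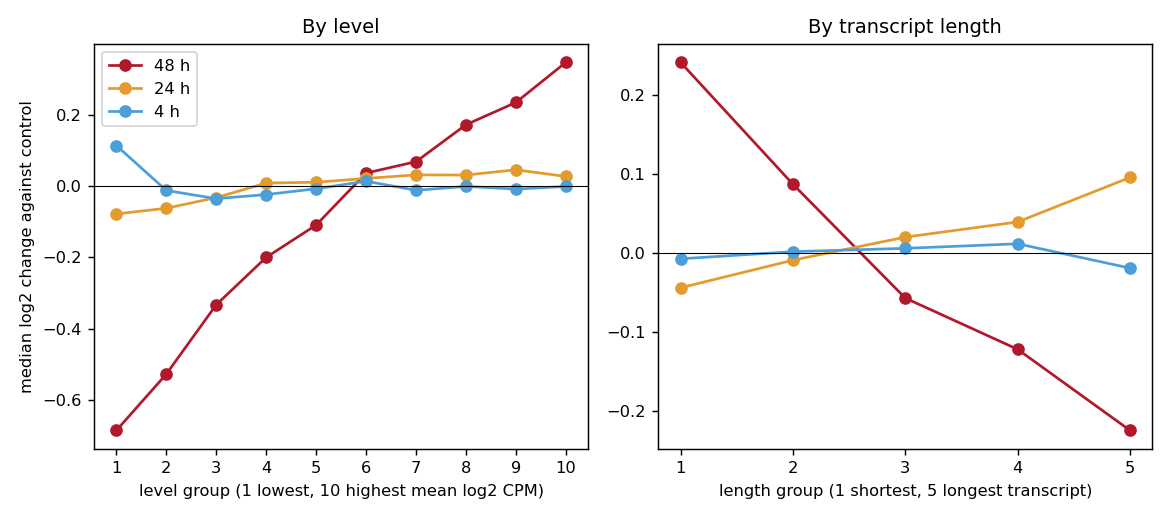
Median log2 change against control in 10 equal groups of genes by mean level and in 5 equal groups by transcript length, at 48 h, 24 h and 4 h. The 48 h line rises from -0.68 to 0.35 with level and falls from 0.24 to -0.23 with length.

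Fewer genes were seen at 48 h. At a common depth of 24620833 counts, 17337 and 17410 genes would be detected in the controls and 16494 and 16647 at 48 h. In all, 13819 genes had at least 10 counts in both controls and 13120 in both 48 h libraries. A total of 495 genes went from at least 10 counts in both controls to fewer than 10 in both 48 h libraries, and 52 went the opposite way. P2RY6, a nucleotide receptor gene, had 14 and 13 counts in the controls and 0 in both 48 h libraries, which allows up to 3 counts. KRTAP4-2 had 0 in the controls and 24 and 15 at 48 h. LOC645431 and ZNF572 also went from at least 10 counts to 0, and all 4 were picked after their values were seen. The 100 genes with the most counts held 19.9% and 19.4% of counts in the controls and 23.9% and 23.0% at 48 h. The 10 genes that gained most in share, HSPA5, FTH1, VIM and SQSTM1 among them, gained 2.75 percentage points together, of 16.1 points gained by 6220 genes. Among the largest losses in share were those of ALDH1A3, IL1B, CSF3 and STC1. ALDH1A3, an aldehyde dehydrogenase linked to mesenchymal glioma stem cells, held 0.318% of counts in control and 0.102% at 48 h.

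Genes of the ZNF, HOX and chromatin lists were more often lower than higher. Of 393 tested ZNF zinc finger genes, a large family of DNA-binding repressors, 173 were lower and 95 higher, with a median of -0.36, and 106 fell and 29 rose by at least 2-fold (205 lower and 68 higher with library totals). ZNF629 stood at 40.3 and 37.9 CPM in the controls and 4.56 and 6.496 at 48 h (log2 change -2.82 ± 0.13, adjusted p = 1.63e-08). ZNF462 stood at 23.7 and 27.4 CPM in the controls and 75.7 and 87.8 at 48 h (log2 change 1.68 ± 0.10). Of 19 HOX genes, 10 were lower and 3 higher, with a median of -0.94; HOXD8 stood at 18.98 and 21.2 CPM in the controls and 9.12 and 10.6 at 48 h (log2 change -1.03 ± 0.12). Among 51 chromatin remodellers and readers, 24 were lower and 12 higher, with a median of -0.26; with library totals 35 were lower and 6 higher. The acetyltransferase gene KAT5, among the higher genes, stood at 26.4 and 24.2 CPM in the controls and 82.2 and 82.4 at 48 h (log2 change 1.70 ± 0.08). The remodeller SMARCAD1 stood at 58.9 and 56.2 CPM in the controls and 23.9 and 24.7 at 48 h (log2 change -1.24 ± 0.08). Of 48 histone methyltransferases and demethylases, 15 were higher (31.25%) and 21 lower (43.75%), beside 33.3% and 33.5% of all genes tested. With library totals 9 were higher and 28 lower. The median of -0.13 ran from -0.23 without 48 h replicate 2 to -0.04 without 48 h replicate 1. EZH1 stood at 23.97 and 26.3 CPM in the controls and 73.7 and 72.97 at 48 h (log2 change 1.55 ± 0.08). The demethylase PHF8 stood at 37.7 and 43.1 CPM in the controls and 9.97 and 13.8 at 48 h (log2 change -1.76 ± 0.13). KLF and SP factors went against the trend, with 10 of 20 higher and 3 lower and a median of 0.38 (9 and 5 with library totals, and a median of 0.22 without 48 h replicate 2); KLF6 stood at 60.9 and 69.2 CPM in the controls and 178 and 184 at 48 h (log2 change 1.47 ± 0.07).

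More long noncoding RNAs were lower than higher. Of 104 LINC and antisense transcripts, 44 were lower and 13 higher, with a median of -0.60 (58 and 6 with library totals, and a median of -0.26 over those with at least 5 CPM in 2 libraries). Without a known use of strand, antisense genes cannot be told apart from their partners. LINC00346 stood at 22.9 and 26.4 CPM in the controls and 2.18 and 0.928 at 48 h (log2 change -3.98 ± 0.23). EPB41L4A-AS1 stood at 5.496 and 6.41 CPM in the controls and 41.6 and 33.8 at 48 h (log2 change 2.66 ± 0.15). Of 23 host genes of small RNAs and nuclear noncoding RNAs, 12 were higher and 5 lower, and the 5 were all hosts of microRNAs. SNHG1, a host of small nucleolar RNAs, stood at 30.5 and 31.2 CPM in the controls and 84.4 and 83.3 at 48 h (log2 change 1.44 ± 0.08). NEAT1, the scaffold of paraspeckles, stood at 72.3 and 84.5 CPM in the controls and 317 and 348 at 48 h (log2 change 2.09 ± 0.11). MIR22HG stood at 31.2 and 28.7 CPM without drug, 55.8 and 63.8 (4 h), 7.95 and 9.25 (24 h) and 0.987 and 0.928 (48 h). MIR22HG changed by -4.96 ± 0.16 on the log2 scale (adjusted p = 1.17e-09). MIR210HG stood at 10.1 and 9.61 CPM in the controls and 0.102 and 0.103 at 48 h and was called lower; its 48 h libraries held 3 counts each, so no fold is given. DGCR8, which with Drosha cuts microRNA precursors, was also among the largest falls, at 32.5 and 32.4 CPM without drug, 34.2 and 35.9 (4 h), 12.2 and 11.4 (24 h) and 0.749 and 0.791 (48 h). For DGCR8 the log2 change was -5.39 ± 0.14 (adjusted p = 4.46e-10).

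Among genes whose mean log2 CPM was 2 or more, the 8 largest rises were HES1, DDIT3, ATF3, HEATR8-TTC4, PPP1R15A, GDF15, C1orf51 and LTF. That mean is over all 8 libraries, so a high 48 h level can itself bring a gene into the ranking. HES1, a repressor at the end of the Notch pathway, stood at 1.93 and 2.36 CPM without drug, 4.12 and 5.94 (4 h), 3.78 and 2.91 (24 h) and 58.3 and 52.3 (48 h). The HES1 log2 change was 4.69 ± 0.18 (adjusted p = 4.77e-09). Of 14 Notch pathway genes tested, HES1 included, 2 were higher and 6 lower, with a median of -0.45 that was -0.08 without 48 h replicate 1. RBPJ, the pathway's DNA-binding factor, stood at 194 and 207 CPM in the controls and 94.6 and 116 at 48 h (log2 change -0.93 ± 0.09). HEATR8-TTC4 is a readthrough transcript that overlaps other genes, so its reads are uncertain. The 8 largest falls were PPP1R10, DGCR8, SMAD6, FAM212B, MIR22HG, PRMT6, ANGPTL4 and GPX3. PPP1R10, a nuclear regulatory subunit of protein phosphatase 1, stood at 66.97 and 68.5 CPM without drug, 93.7 and 104 (4 h), 50.03 and 47.8 (24 h) and 0.646 and 0.584 (48 h), 109-fold lower than control (log2 change -6.77 ± 0.13, adjusted p = 6.95e-11). PRMT6, an arginine methyltransferase of histones, stood at 26.3 and 24.9 CPM in the controls and 0.646 and 1.100 at 48 h (log2 change -4.87 ± 0.17). GPX3, a secreted glutathione peroxidase, stood at 18.8 and 21.4 CPM in the controls and 0.885 and 1.07 at 48 h (log2 change -4.36 ± 0.15).

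Of 40 mitosis genes, 28 were higher at 48 h and 5 lower, with a median of 0.47 (19 and 6 with library totals). PLK1, the mitotic kinase, stood at 64.2 and 70.96 CPM without drug, 30.4 and 31.7 (4 h), 120.5 and 109.6 (24 h) and 213 and 211 (48 h). PLK1 changed by 1.65 ± 0.07 on the log2 scale (adjusted p = 1.30e-08). ASPM and ESPL1 (separase) were lower, with log2 changes of -1.26 ± 0.09 and -1.27 ± 0.11. Of 40 S phase entry and replication genes, 21 were lower and 11 higher, with a median of -0.33 (24 and 8 with library totals). CCNE2, a cyclin of S phase entry, stood at 14.5 and 14.98 CPM without drug, 8.68 and 9.65 (4 h), 19.7 and 20.9 (24 h) and 0.953 and 1.24 (48 h). For CCNE2 the log2 change was -3.75 ± 0.16 (adjusted p = 9.29e-09). UHRF1, which keeps DNA methylation through replication, stood at 35.1 and 34.9 CPM in the controls and 3.27 and 3.92 at 48 h (log2 change -3.28 ± 0.11). The helicase subunit MCM6 stood at 137 and 129 CPM in the controls and 40.9 and 40.1 at 48 h (log2 change -1.71 ± 0.07). RRM2, of the reductase that makes deoxynucleotides, was higher, at 89.4 and 82.5 CPM in the controls and 156 and 143 at 48 h (log2 change 0.80 ± 0.07). DNA repair gave 19 lower and 10 higher of 33, with a median of -0.39; with library totals 22 were lower and 1 higher, with a median of -0.67. These lists had gone up at 24 h, when 12.9% of all genes were higher than control and 9.39% lower. Then 39 of the 40 mitosis genes, 38 of the 40 replication genes and 21 of the 33 repair genes were higher, with medians of 0.96, 0.72 and 0.56. At 4 h, when 15.0% of all genes were higher and 13.6% lower, 39 mitosis, 33 replication and 21 repair genes were lower. The 3 times share the control libraries. In the test of 48 h against 24 h, 31.5% of all genes were higher at 48 h and 35.3% lower. There, 36 of the 40 replication genes were lower at 48 h, as were 26 of the 40 mitosis genes.

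**Figure D4:**
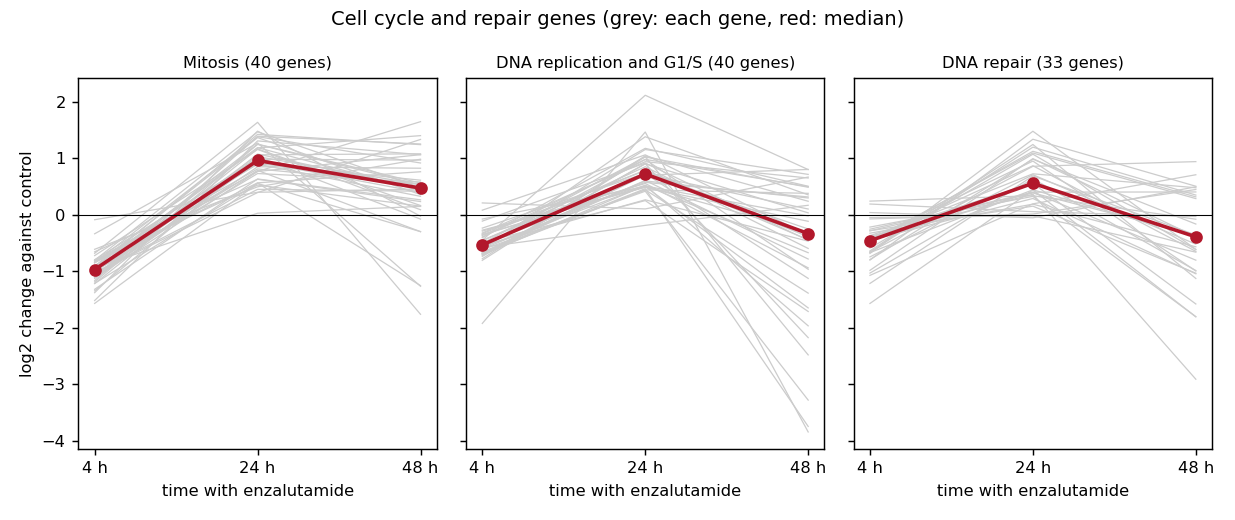
Log2 change against control at 4 h, 24 h and 48 h of each gene (grey) and their median (red) in 3 lists. The medians of all 3 lists are below 0 at 4 h and above 0 at 24 h; at 48 h the mitosis median is 0.47 and the replication and repair medians are -0.33 and -0.39. With library totals the 48 h medians are 0.19, -0.61 and -0.67.

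Of 30 collagens, 20 were lower and 1 higher, with a median of -0.57. COL1A2 stood at 680.2 and 682 CPM without drug, 383 and 402 (4 h), 398 and 384 (24 h) and 35.9 and 50.2 (48 h). The COL1A2 log2 change was -3.99 ± 0.13 (adjusted p = 1.20e-09), and it was already lower at 4 h and 24 h, with log2 changes of -0.79 and -0.80. COL5A1 stood at 146 and 152 CPM in the controls and 38.96 and 43.3 at 48 h (log2 change -1.86 ± 0.07). The exception COL12A1 stood at 60.4 and 73.5 CPM in the controls and 101 and 129 at 48 h (log2 change 0.78 ± 0.14). Of 40 matrix glycoproteins and proteoglycans, 21 were lower and 10 higher (26 and 4 with library totals). LOXL1, which crosslinks elastin, stood at 197 and 189.5 CPM in the controls and 58.8 and 50.3 at 48 h (log2 change -1.83 ± 0.09). TGFBI, an abundant adhesion protein, stood at 3914 and 4042 CPM in the controls and 6669 and 5705 at 48 h (log2 change 0.64 ± 0.07). Of 21 targets and parts of TGF-beta and BMP signalling, 13 were lower and 4 higher, with a median of -0.57. The receptor TGFBR2 stood at 136 and 141 CPM in the controls and 34.2 and 40.5 at 48 h (log2 change -1.89 ± 0.09). ID1, a target of BMP, stood at 86.3 and 98.9 CPM without drug, 174 and 154 (4 h), 149.8 and 146 (24 h) and 13.2 and 11.5 (48 h) (log2 change -2.90 ± 0.10, adjusted p = 2.53e-09). SMAD6, an inhibitor of BMP signalling that is itself its target, stood at 9.18 and 12.1 CPM in the controls and 0.238 and 0.344 at 48 h (log2 change -5.18 ± 0.25). ANGPTL4 stood at 8.78 and 9.06 CPM without drug, 122 and 117 (4 h), 10.5 and 12.1 (24 h) and 0.306 and 0.481 (48 h): against control it was higher at 4 h and 24 h, with log2 changes of 3.74 and 0.34, and lower at 48 h, with -4.49 ± 0.19. TGIF1, a repressor of SMAD activity, went up, at 81.9 and 76.5 CPM in the controls and 261 and 286 at 48 h (log2 change 1.79 ± 0.07). Of 8 Hedgehog pathway genes, 7 were lower and 0 higher, with a median of -1.09. The receptor PTCH1 stood at 8.61 and 10.4 CPM in the controls and 2.31 and 2.99 at 48 h (log2 change -1.84 ± 0.18). The transcription factor GLI2 stood at 27.1 and 25.7 CPM in the controls and 9.36 and 11.03 at 48 h (log2 change -1.37 ± 0.10).

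Of 26 genes of NF-kappaB inflammation, 16 were lower and 5 higher, with a median of -1.20 (18 and 2 with library totals), and 15 of the 16 fell by at least 2-fold. CSF3 (G-CSF), a growth factor for neutrophils, stood at 1778 and 1479 CPM without drug, 1564 and 1448 (4 h), 1619 and 1509 (24 h) and 104 and 98.7 (48 h). CSF3 changed by -4.00 ± 0.10 on the log2 scale (adjusted p = 3.57e-10). IL1B stood at 2599 and 2202 CPM in the controls and 719 and 515 at 48 h (log2 change -1.96 ± 0.14). IL6 stood at 187 and 145 CPM in the controls and 32.8 and 38.3 at 48 h (log2 change -2.22 ± 0.12). The chemokine genes CXCL1 and CCL2 had log2 changes of -2.86 ± 0.13 and -3.84 ± 0.15. IL6, CXCL1 and CCL2 were already lower at 24 h, with log2 changes of -0.79, -0.96 and -0.72, whereas that of CSF3 was -0.06. The NF-kappaB subunits NFKB2 and RELB rose, with log2 changes of 0.58 ± 0.07 and 0.66 ± 0.08. Of 29 interferon-induced genes, 15 were lower and 3 higher, with a median of -0.51 (-0.31 without control replicate 1, and -0.09 over the members with at least 5 CPM in 2 libraries); IRF1, a transcription factor, was a higher member, at 61.7 and 53.04 CPM in the controls and 152 and 139.7 at 48 h (log2 change 1.35 ± 0.09).

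Among 26 genes known to respond to androgens, 9 were higher and 9 lower, 34.6% each, beside 33.3% and 33.5% of all genes tested. The median of 0.08 was -0.20 with library totals (8 higher and 13 lower) and 0.33 with a correction for length and GC content. The median was -0.04 without control replicate 1, -0.02 without 48 h replicate 1 and -0.06 without 48 h replicate 2. SGK1, a kinase also induced by stress and glucocorticoids, stood at 30.7 and 34.3 CPM without drug, 32.6 and 31.7 (4 h), 33.3 and 29.2 (24 h) and 160.4 and 169 (48 h). For SGK1 the log2 change was 2.34 ± 0.09 (adjusted p = 3.09e-09). PMEPA1 stood at 32.5 and 37.6 CPM without drug, 222 and 201 (4 h), 42.2 and 41.4 (24 h) and 9.12 and 9.87 (48 h). The PMEPA1 log2 change was -1.89 ± 0.10. Of 19 genes associated with glioma stem cells, 11 were lower and 4 higher, with a median of -0.54. NES, an intermediate filament gene of neural progenitors, stood at 25.2 and 27.1 CPM in the controls and 10.9 and 13.2 at 48 h (log2 change -1.11 ± 0.10). SOX9 stood at 11.4 and 11.99 CPM in the controls and 2.62 and 2.34 at 48 h (log2 change -2.24 ± 0.14). MYC, against the trend, stood at 75.02 and 67.6 CPM without drug, 105 and 97.1 (4 h), 81.4 and 84.7 (24 h) and 466 and 464 (48 h) (log2 change 2.70 ± 0.07, adjusted p = 4.55e-10). Of 22 mesenchymal factors and markers, 13 were higher and 3 lower, with a median of 0.27 that was -0.00 with library totals (7 higher and 6 lower). SNAI2, a repressor of epithelial genes, stood at 89.04 and 92.6 CPM in the controls and 395 and 439 at 48 h (log2 change 2.20 ± 0.07). The circadian clock showed 9 of 17 genes higher and 2 lower, with a median of 0.33; with library totals 5 were higher and 4 lower, with a median of 0.05. PER1 stood at 23.03 and 25.8 CPM without drug, 15.4 and 16.2 (4 h), 21.4 and 18.2 (24 h) and 155 and 163 (48 h) (log2 change 2.70 ± 0.09, adjusted p = 2.26e-09). NR1D1 (REV-ERB alpha) stood at 64.6 and 61.1 CPM in the controls and 386 and 340.1 at 48 h (log2 change 2.53 ± 0.08). CLOCK stood at 45.6 and 51.5 CPM in the controls and 32.7 and 36.8 at 48 h (log2 change -0.48 ± 0.09).

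**Figure D5:**
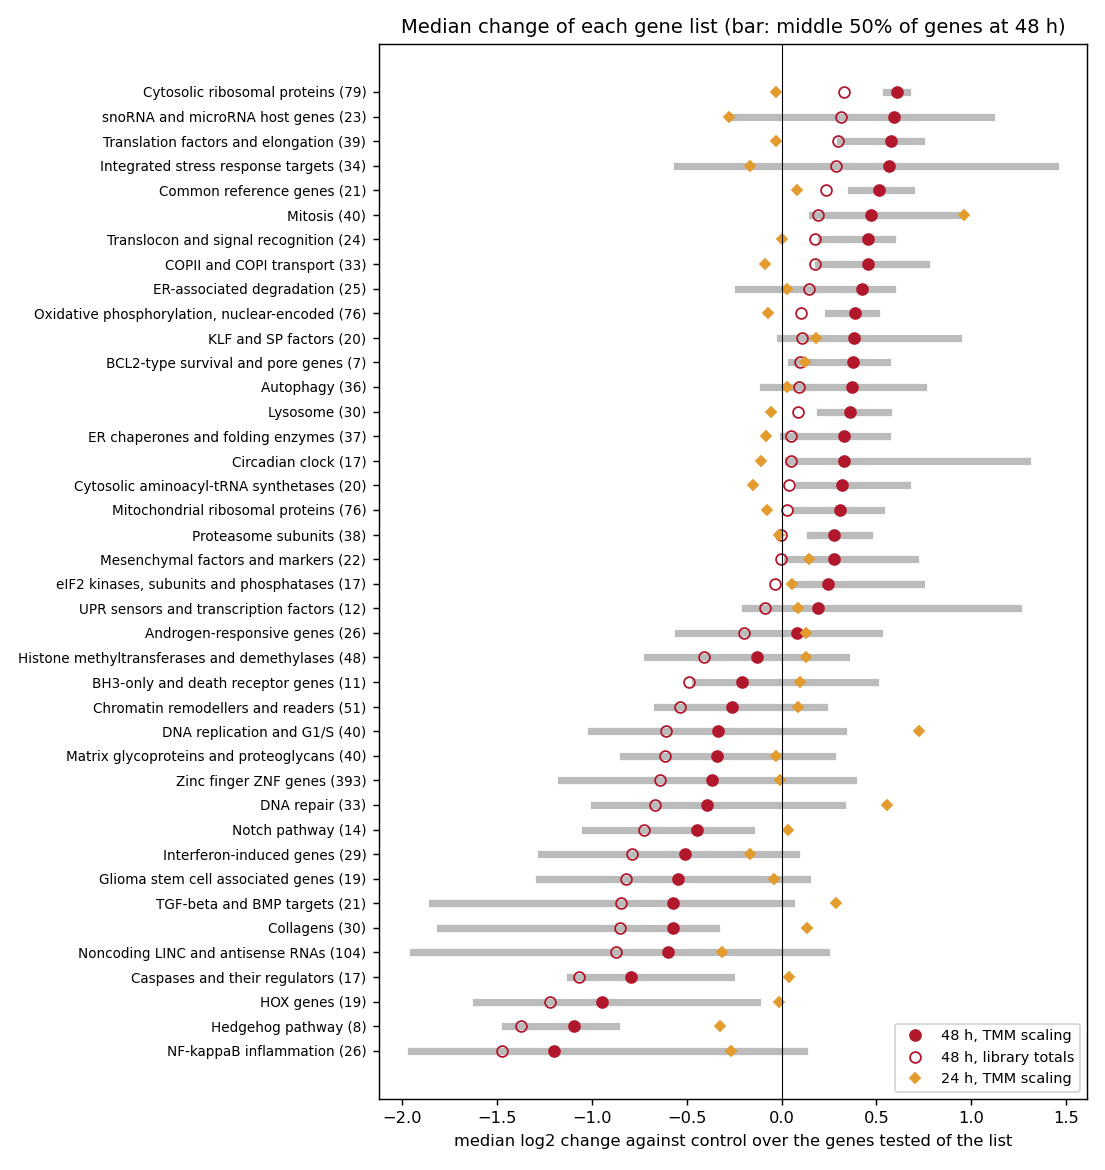
Median log2 change of 40 gene lists against control at 48 h with TMM scaling (filled), at 48 h with library totals (open) and at 24 h (diamonds). Grey bars span the middle 50% of genes at 48 h, and the number of genes tested is in brackets. Cytosolic ribosomal proteins lie at the top with 0.61 and NF-kappaB inflammation at the bottom with -1.20. Of the 40 medians, 35 have the same sign under both scalings and with DESeq2 size factors; the 5 that do not are those of the UPR sensors, eIF2 genes, proteasome, mesenchymal and androgen-responsive lists.

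At 24 h, 12.9% of all genes tested were higher than control and 9.39% lower, so most genes of any kind were not called then. Of the 9661 genes called at 48 h, 7241 were not called against control at 24 h, and 6391 of these also differed in the test of 48 h against 24 h. In that test 4548 genes were higher at 48 h (31.5%) and 5104 lower (35.3%). HSPA5 differed from 24 h by 3.07 ± 0.06 on the log2 scale (adjusted p = 1.27e-10) and DDIT3 by 3.95 ± 0.11 (adjusted p = 8.16e-10). Of the ER lists, 28 of 37 chaperones, 26 of 33 coat genes and 24 of 34 stress response targets were higher at 48 h than at 24 h. LTF, which encodes lactoferrin, had the largest rise between these times among genes whose mean log2 CPM over all 8 libraries was 2 or more. LTF went from 0.761 and 0.352 CPM at 24 h to 33.4 and 33.4 CPM at 48 h, with 4.08 and 4.11 CPM in the controls. A high 48 h level can itself bring a gene into that ranking.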

How the data were processed

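Total RNA of U87MG cells was sequenced in 8 libraries, 2 per group. The deposited files hold 1 whole-number count of reads per gene and library; per the submitters' processing notes, the authors used Bowtie and hg19 (GRCh37). Which program counted the reads, with which annotation and strand setting, and which Bowtie version was run is not given in the sources used here. From the deposited counts, edgeR 4.0.16 (limma 3.58.1, R 4.3.3) filtered genes with filterByExpr, scaled by TMM and fitted all 8 libraries together with 4 residual degrees of freedom and a biological coefficient of variation of 7.16%. The quasi-likelihood test gave p-values, adjusted by Benjamini-Hochberg over 14448 genes, with a threshold of 0.05. CPM in the text are TMM-scaled, and ± is a standard error. Library totals ran from 24620833 to 37162565 counts, and their precision covers counting error only. Names that a spreadsheet had turned into dates (28, with 0.191% to 0.224% of counts) were tested but not named.

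The members, the gene lists and the comparisons were chosen with earlier results of these data known. Genes were named by a rule: the 8 largest rises and falls with non-overlapping libraries and a mean log2 CPM of at least 2, the 8 largest gains and losses in share, the 4 largest rises and falls from 24 h to 48 h, all genes of lists of at most 8, and in each list the 4 with the smallest p and the 2 with the smallest p in the minority direction. Of 173 tested genes named, 123 come from the rule and 50 were chosen after their values were seen. Some genes the rule names are not reported here. Promoters came from RefSeq (GRCh38.p14) and transcript length and GC content from GENCODE on GRCh38, which matched 13791 genes; only names were joined, and no coordinate was converted from hg19. As alternatives, limma-voom, DESeq2 1.42.0 and its size factors within edgeR, library totals, other filters, the 2 groups alone, a replicate block and leaving out each library were run, and, added after seeing the data, a length and GC correction (mgcv 1.9.3). The fit was tested on simulated counts with few changed genes, as many up as down. That run cannot test the scaling.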

Additional observations from a re-analysis of the deposited data

Results flagged for a closer look

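The difference between the 48 h and the 24 h effect, tested as 48 h against 24 h by edgeR's quasi-likelihood test, passed an adjusted p of 0.05 in 4548 genes that were higher at 48 h and 5104 that were lower. Both effects share the control libraries. In 493 genes the direction turned from higher than control at 24 h to lower at 48 h, with 48 h also below 24 h, and in 359 genes it turned the opposite way.

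Rankings cover genes whose mean log2 CPM over all 8 libraries was 2 or more, which a high 48 h level can itself bring about. The largest rises from 24 h to 48 h, as log2 differences, were LTF (5.87), HES1 (4.04), DDIT3 (3.95) and ATF3 (3.74). The largest falls were PPP1R10 (-6.30), SMAD6 (-5.10), ANGPTL4 (-4.83) and FAM111B (-4.72). Groups of 2 libraries are too small to look for a library far from the others of its group.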

How the results depend on the processing

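Counts of genes called at 48 h against control stayed within 1.5 times the reported 4814 higher and 4847 lower with DESeq2, limma-voom, DESeq2 size factors, other filters, the 2 groups alone and the length and GC correction. With library totals 2742 were higher. A log2 change of at least 1 left 766 higher and 2290 lower, and against 24 h 798 higher and 2330 lower; this follows from the stricter rule. Leaving out 1 library gave 4146 to 5016 higher and 4115 to 4828 lower than control, and 3899 to 4755 higher and 4374 to 5056 lower than 24 h.

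With library totals the list medians turned to -0.085 for the UPR sensors, -0.037 for eIF2 genes, -0.0018 for the proteasome, -0.0035 for mesenchymal factors and -0.20 for androgen-responsive genes, and the log2 changes of ATF6 to -0.19, BCL2L1 to -0.089, COPB2 to -0.088, CRELD2 to -0.24 and IARS to -0.18. The androgen-responsive median was also -0.12 with no filter, -0.04 without control replicate 1, -0.02 without 48 h replicate 1 and -0.057 without 48 h replicate 2, 0.12 without control replicate 2 and 0.33 with the length and GC correction, with or without the replicate block. The length and GC correction gave 0.10 for histone methyltransferases (0.094 with the replicate block) and 0.061 for SAR1A (0.057 with the block), and SEC16A was -0.20 without 48 h replicate 2 and 0.30 without 48 h replicate 1. The cause was not tested. Of 162 named genes that were called, 143 stayed called in the same direction under every alternative in which they were tested.

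A fit with the replicate number as a block called 4945 genes higher and 4939 lower than control. The deviations of same-numbered libraries correlated at 0.135 between control and 48 h and at 0.076 between 24 h and 48 h, over 2 pairs, so the numbers are not shown to pair the libraries. Replicates differed by more than counting error, with a chi-square over genes of 6.92 per degree of freedom in control and 20.8 at 48 h. Genes with counts near 10 carry the largest counting error.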
